A study of Rattus norvegicus with 24 samples.

Results

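The genes described here are 9 members of the epidermal growth factor (EGF) receptor family and its ligands, measured in normal colon and colonic tumours of Pirc rats. There are 6 ligand genes, Areg (amphiregulin), Ereg (epiregulin), Tgfa (transforming growth factor alpha), Hbegf (heparin-binding EGF-like growth factor), Btc (betacellulin) and Egf. The 3 receptor genes are Egfr, Erbb2 and Erbb3. They were found by name, from the gene names and accessions that the array files give their probes. The choice of genes was made with earlier results of these data known. All 9 were on the array, on 10 probes, and all 9 were kept among the 26653 features tested.

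The rats were male (ACIxF344)F1-Pirc animals, a hybrid of the ACI and F344 strains in which 1 copy of Apc, a suppressor of Wnt signalling and of intestinal tumours, carries the Pirc mutation. Both treatment groups carried this mutation, so normal colon here is unaffected tissue of a tumour-prone rat. Rats 1, 5, 6, 7 and 9 drank 4% dextran sodium sulfate (DSS), which injures the colonic lining, from day 40 to 47 and from day 54 to 61 of age, and rats 2, 3, 4, 8 and 10 stayed untreated. Normal distal colon and tumour of each rat were taken at 97 days of age, which gave 4 groups of 5 rats. Each sample carried the dye Cy3 and shared its array with 1 common reference in Cy5, pooled from the colons of rats wild type for Apc. Every level below is therefore log2 of the sample over that pool, and 0 is the level of the pool. No label states how many tumours or cells a sample held.

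The 9 genes belong to 1 signalling system. The ligands are made as membrane proteins, and proteases of the ADAM family cut them loose. A bound receptor pairs with another receptor of the family and switches on the Ras and MAP kinase cascade, which raises the transcription of immediate early genes. Egfr binds all 6 ligands, Erbb2 has no known ligand of its own and serves as the preferred partner, and Erbb3 binds neuregulins and signals through partners because its own kinase is weak. In the intestine this system drives the growth of crypt cells and the repair of a damaged epithelium.

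Across the 24 arrays (20 samples, of which 4 had a second array that was averaged with the first), 3 arrays stood apart by a raised signal. They held normal colon of rat 4, tumour of rat 9 and, as the first of its 2 arrays, normal colon of rat 2, with 87.1% to 95.2% of probes well above background against 48.4% to 71.0% on the others. Arrays scanned on days 1 and 2 held rats 1 to 6, and arrays scanned on day 3 held rats 7 to 10, so each group had 3 rats in the first scan batch and 2 in the second. Rats 1 and 5, both given DSS, were closest in normal colon, with a correlation over genes of 0.970 against 0.863 for the next closest pair of that group. The labels give them as separate rats, which the files cannot settle; counted as 1, that group would hold 4 rats. Markers of squamous epithelium, which lines the anal canal and not the colon, had list means of 3.18 to 5.16 in normal colon of DSS rats, of -0.04 to 2.05 in normal colon of untreated rats and of at most 0.35 in tumours. Their 9 tested genes all rose with DSS in normal colon. General epithelial markers lay between -0.20 and 0.76 in every sample.

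The sequences that bear on the results are shown first. The Erbb2 and Egfr probes read these 60 bases each, as the array files list them, in lower case throughout.

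Erbb2 probe: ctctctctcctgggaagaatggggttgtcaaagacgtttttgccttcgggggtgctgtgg

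Egfr probe, printed 10 times on the array: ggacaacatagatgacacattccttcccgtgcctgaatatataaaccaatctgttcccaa

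A second Egfr probe, printed once and brighter, was used for the gene, and both are reported below. The probes of Egf and Erbb2 were also printed 10 times per array, and those of the other 6 members once.

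RefSeq's rat assembly GRCr8 gave sequence upstream of 7 of the 9 genes, all but Ereg and Erbb3. The windows shown are those of the 3 genes that passed a test below, Egf, Erbb2 and Hbegf, and that of Areg, the only one of the 7 with a cyclic AMP response element. Each ends just before the first annotated base of its gene and reads 5′ to 3′ on the gene's strand. Capitals mark matches on either strand to the cyclic AMP response element TGACGTCA, the AP-1 site TGANTCA, the TCF site CTTTGA or the GC box GGGCGG, and no searched motif overlapped another in Areg.

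Egf, minus strand, chr2:220976332-220976547: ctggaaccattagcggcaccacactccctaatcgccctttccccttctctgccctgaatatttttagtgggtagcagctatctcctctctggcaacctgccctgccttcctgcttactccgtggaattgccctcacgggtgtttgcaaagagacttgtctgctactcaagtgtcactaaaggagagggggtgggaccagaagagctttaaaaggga

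Erbb2, plus strand, chr10:83907351-83907490: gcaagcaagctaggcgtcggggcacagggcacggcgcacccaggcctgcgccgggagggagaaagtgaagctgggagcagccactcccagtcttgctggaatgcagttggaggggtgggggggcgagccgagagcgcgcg

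Hbegf, minus strand, chr18:28390221-28390470: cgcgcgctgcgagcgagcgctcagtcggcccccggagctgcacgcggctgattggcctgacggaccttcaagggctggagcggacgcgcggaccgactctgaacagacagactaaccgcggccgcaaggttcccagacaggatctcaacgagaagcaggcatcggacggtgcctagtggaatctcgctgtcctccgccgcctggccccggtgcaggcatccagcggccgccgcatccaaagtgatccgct

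Areg, minus strand, chr14:17265642-17265891: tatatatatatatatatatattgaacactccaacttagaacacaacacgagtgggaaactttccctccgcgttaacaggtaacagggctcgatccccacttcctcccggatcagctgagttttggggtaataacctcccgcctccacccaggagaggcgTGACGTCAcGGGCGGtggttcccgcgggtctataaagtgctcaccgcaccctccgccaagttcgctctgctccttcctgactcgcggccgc

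The 250-base Areg window held 1 response element and 1 GC box, which 1.59% and 30.5% of all 33469 promoter windows of that length held. None of the 4 motifs occurred in the windows of Egf (216 bases, 52.3% G or C), Erbb2 (140 bases, 70.0%) or Hbegf (250 bases, 67.6%). Among all promoters, 6.34% of 250-base windows held the AP-1 site and 13.9% the TCF site. The TCF site was in 12.3% of windows of the Egf length and in 8.50% of windows of the Erbb2 length. All such windows were taken from the upstream end of each promoter sequence, so they need not end at a gene's first annotated base. Btc, Areg and Ereg are neighbours on chromosome 14.

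**Figure D1:**
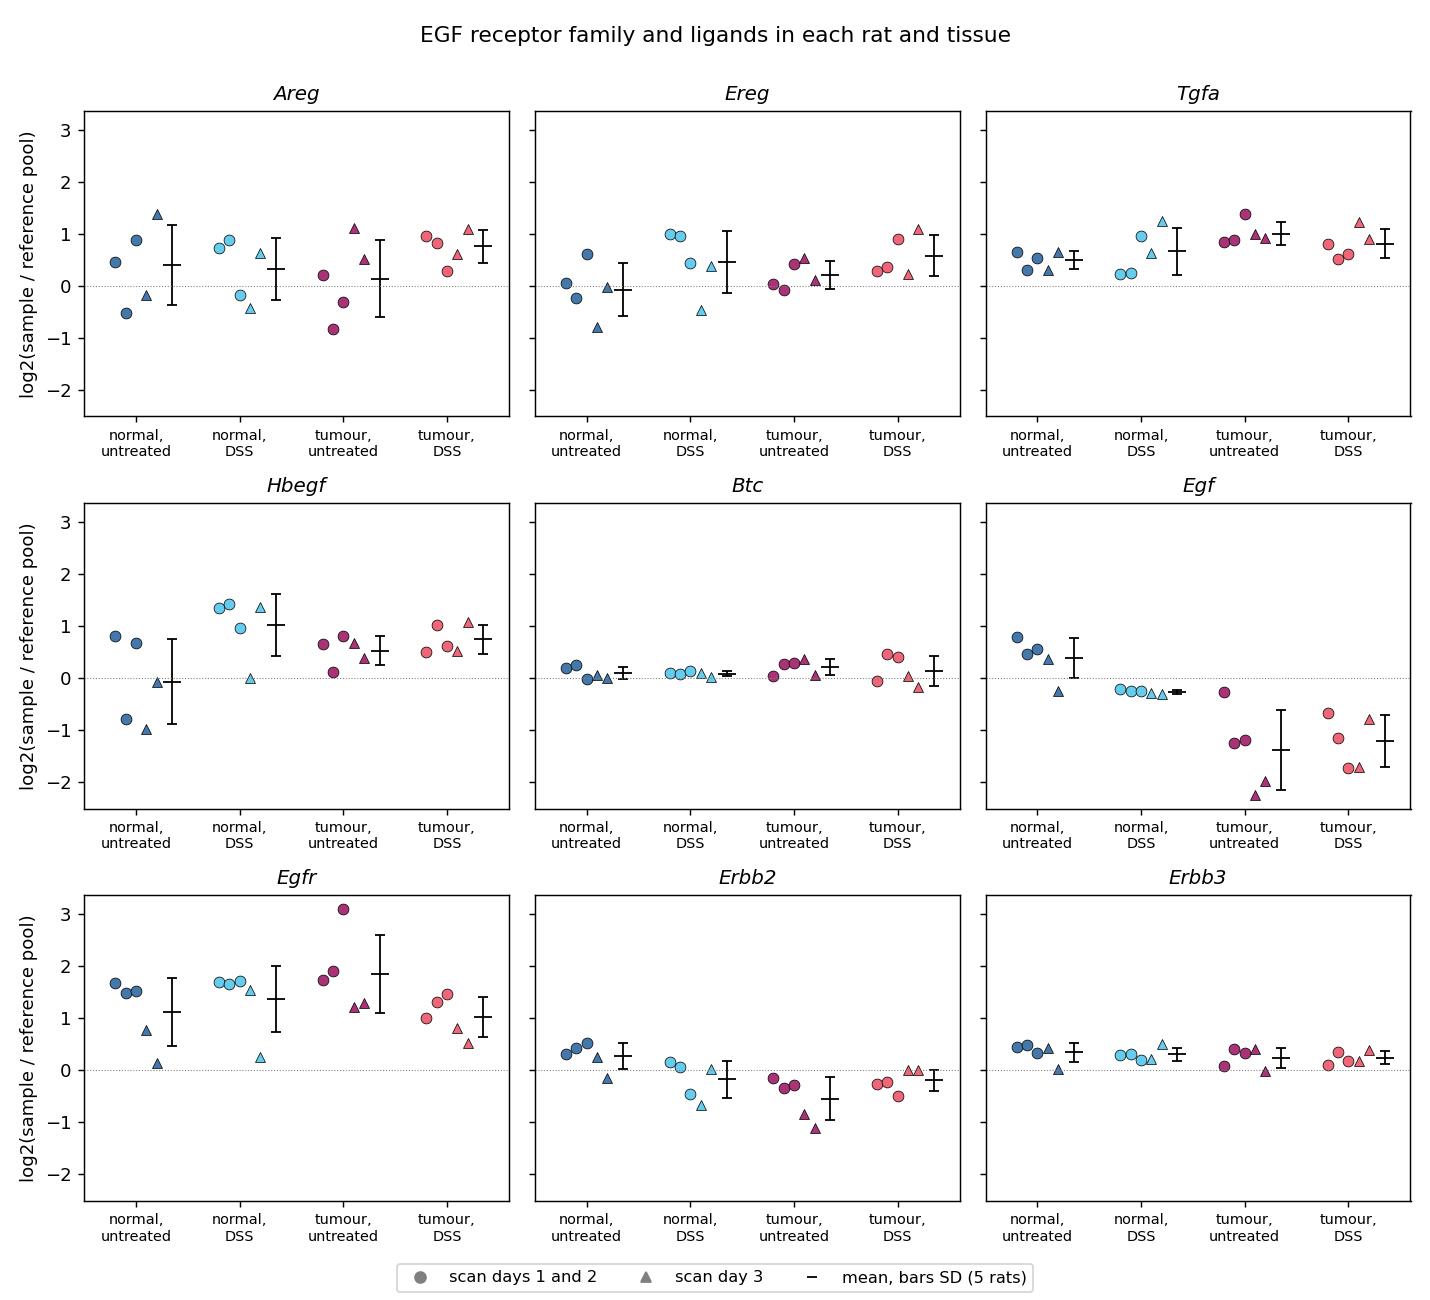
Level of each of the 9 genes in every sample, as log2 of the sample over the pool of wild-type colon; points are rats, circles were scanned on days 1 and 2 and triangles on day 3, and the bars are the mean and SD of 5 rats. Egf sits between -0.25 and 0.79 in normal colon of untreated rats and between -2.24 and -0.26 in their tumours, while Btc and Erbb3 stay within 0.50 of the pool in every sample.

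The first comparison asked which family members differed between tumour and normal colon when no DSS was given. Of the 9 genes, 2 fell in tumours, the ligand Egf and the receptor Erbb2, none rose, and 7 did not pass the threshold of an adjusted p of 0.05. Over all features tested, 18.0% passed in this comparison, 9.42% as lower, so 2 of 9 is near that background. The median change of the 9 genes was 0.11, and that of all features was -0.00. Adjusted p-values here and below are limma's, two-sided and adjusted by Benjamini and Hochberg over all features, and each error after a log2 change is a standard error with 5 rats per group.

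Egf encodes the ligand that names the family. In normal colon of untreated rats its level was 0.79 in rat 2, 0.46 in rat 3, 0.56 in rat 4, 0.35 in rat 8 and -0.25 in rat 10. In the tumours of the same rats it was -0.26, -1.25, -1.20, -2.24 and -1.98. The groups did not overlap, though tumour of rat 2 lay next to normal colon of rat 10, and rats 8 and 10 had the lowest tumour values. Egf fell by 1.77 ± 0.30 on the log2 scale, 3.40-fold lower (95% interval -2.39 to -1.14, adjusted p = 0.000507). Within a rat the tumour was lower in 5 of 5 rats, by 1.05 to 2.60. The change was -1.50 in the first scan batch and -2.16 in the second, and it passed the threshold in both. Without the 3 arrays with raised signal it was -1.66 (adjusted p = 0.00243).

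Normal colon of DSS rats held the most even Egf levels, -0.22, -0.25, -0.26, -0.30 and -0.32 in rats 1, 5, 6, 7 and 9, an SD of 0.04 against 0.39 in untreated rats. Their tumours measured -0.68, -1.15, -1.74, -1.70 and -0.80, all below all 5 normal samples. Tumour minus normal colon in DSS rats was -0.95 ± 0.30 (95% interval -1.57 to -0.32) with an adjusted p of 0.0619, which misses the threshold. Each of the 5 rats had the lower value in its tumour, and with rat as a fixed or a random block, since both tissues come from 1 animal, the same change had an adjusted p of 0.0145 or 0.0157. The change was -0.95 (adjusted p = 0.0732) and -0.94 (adjusted p = 0.297) in the 2 scan batches. It was -1.07 without rat 1 (adjusted p = 0.0884) and -0.96 without rat 5 (adjusted p = 0.171). With each array's log ratios centred on their median in place of loess it was -0.61 (adjusted p = 0.416), and 10 of 27 alternatives passed. Egf was the 1 of 9 genes without overlap in DSS rats, against 7.60% of all features. The interaction, which tests whether the tumour difference depends on DSS, was 0.82 ± 0.42 (95% interval -0.06 to 1.71, adjusted p = 0.378).

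In order of mean level, Egf was highest in normal colon of untreated rats (0.38 ± 0.39, SD, n = 5), then in normal colon of DSS rats (-0.27 ± 0.04, SD, n = 5). Tumours of DSS rats (-1.21 ± 0.49, SD, n = 5) and of untreated rats (-1.39 ± 0.77, SD, n = 5) came last. Neighbours in that order did not differ past the threshold: DSS minus untreated was -0.65 ± 0.30 in normal colon (adjusted p = 0.221) and 0.17 ± 0.30 in tumours (adjusted p = 0.9999). Markers of mature absorptive and goblet cells moved with Egf: their 8-gene list mean was -0.67 to -0.16 in normal colon and -3.61 to -1.60 in tumours of untreated rats. In both treatments 6 of the 8 fell in tumours. These markers were well above background on every array, except Muc2 in tumours. Muc2 was so on 4 of 5 arrays of untreated tumours and on 1 of 6 of DSS tumours. The part of these cells in the Egf result was not tested, and in whole tissue fewer cells of a type and less RNA per cell cannot be told apart. Egf read 305.8 units of median Cy3 intensity and was well above background on all 24 arrays.

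Erbb2 encodes the receptor that has no known ligand. Normal colon of untreated rats 2, 3, 4, 8 and 10 measured 0.30, 0.43, 0.52, 0.25 and -0.15, and their tumours -0.16, -0.35, -0.28, -0.85 and -1.11. The groups did not overlap, and the margin was small, between -0.15 and -0.16. Erbb2 fell by 0.82 ± 0.19, 1.77-fold lower (95% interval -1.23 to -0.42, adjusted p = 0.00616), with the lower value in the tumour of 5 of 5 rats. It fell by 0.68 in the first scan batch (adjusted p = 0.0142), and the second batch gave -1.04 with an adjusted p of 0.0598. With each array's log ratios centred on their median in place of loess, the change was -1.04 and missed the threshold (adjusted p = 0.346). Without the arrays with raised signal it was -0.73 (adjusted p = 0.0238).

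In DSS rats the Erbb2 levels of tumour and normal colon overlapped. Normal colon of rats 1, 5, 6, 7 and 9 measured 0.15, 0.05, -0.46, -0.68 and 0.03, and their tumours -0.28, -0.23, -0.49, -0.0027 and -0.0016. Rats 6 and 7 had the low normal values, and the 2 tumours nearest the pool were those of rats 7 and 9. The difference was -0.02 ± 0.19 (95% interval -0.42 to 0.39, adjusted p = 0.973). The interaction was 0.80 ± 0.27 (95% interval 0.23 to 1.37) with an adjusted p of 0.142. It passed with rat as a random block (adjusted p = 0.0432) or slide as one (adjusted p = 0.0404). The slide fit took arrays singly, so second arrays of a rat and tissue counted as replicates and rat was not modelled. Its p-value may therefore be too low. The interaction was 0.43 (adjusted p = 0.405) and 1.36 (adjusted p = 0.215) within the 2 scan batches and 1.65 (adjusted p = 0.298) with median centring.

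Erbb2 group means ran from 0.27 ± 0.26 (SD, n = 5) in normal colon of untreated rats through -0.18 ± 0.36 (SD, n = 5) in normal colon of DSS rats and -0.20 ± 0.21 (SD, n = 5) in their tumours to -0.55 ± 0.41 (SD, n = 5) in tumours of untreated rats. DSS minus untreated was -0.45 ± 0.19 in normal colon (adjusted p = 0.184) and 0.35 ± 0.19 in tumours (adjusted p = 0.918), so no neighbours in that order differed past the threshold. The absorptive and goblet cell markers above fell in the same tumours as Erbb2, and of 7 general epithelial markers only Cldn7, which was named after its value was seen, fell there. In DSS rats the absorptive and goblet list mean was -3.47 to -2.55 in tumours and -1.33 to -0.56 in normal colon. The Erbb2 difference between those tissues, -0.02, did not pass the threshold. Its interval of -0.42 to 0.39 includes a fall as well as a rise, so it does not show that Erbb2 was unchanged. The part of these cells in the Erbb2 levels was not tested in either treatment.

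**Figure D2:**
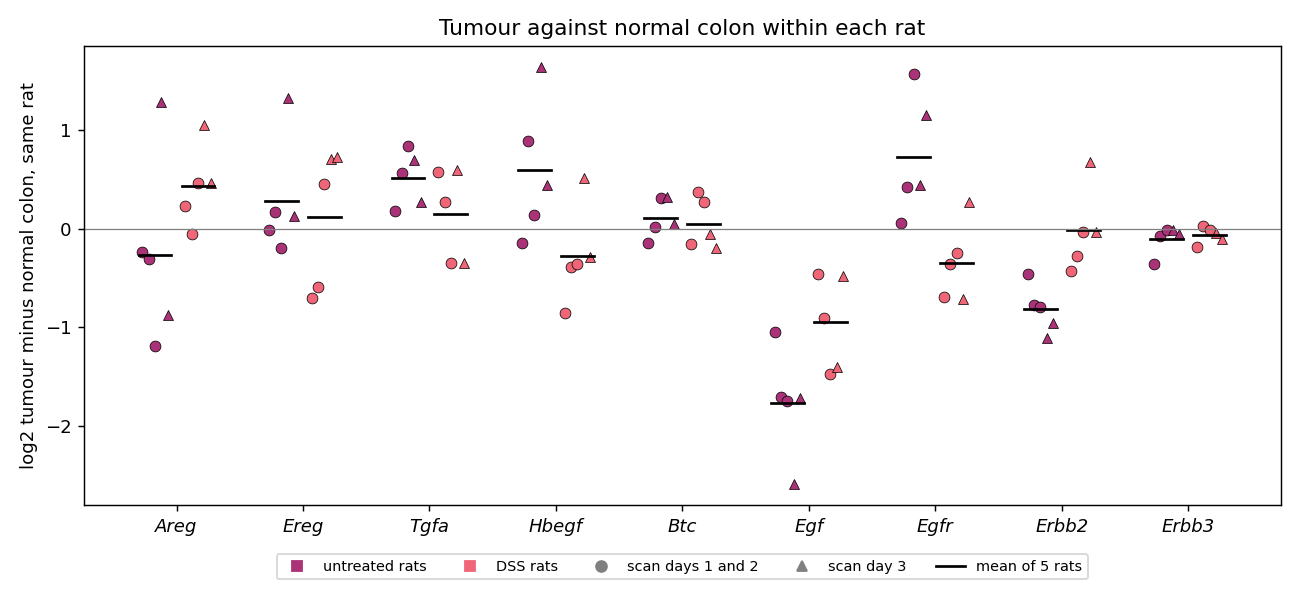
Tumour minus normal colon of the same rat on the log2 scale for each gene, untreated rats in the darker and DSS rats in the lighter colour; black lines are means of 5 rats, circles were scanned on days 1 and 2 and triangles on day 3. Egf lies below 0 in all 10 rats, Erbb2 lies below 0 in all 5 untreated rats, and Egfr and Tgfa lie above 0 in all 5 untreated rats.

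Tgfa encodes a ligand made by surface epithelium of the gut. It measured 0.65, 0.31, 0.53, 0.30 and 0.64 in normal colon of untreated rats 2, 3, 4, 8 and 10 and 0.83, 0.88, 1.37, 0.99 and 0.91 in their tumours. The groups did not overlap, which held for 3 of the 9 genes, Egf, Erbb2 and Tgfa, and for 12.3% of all features. The change was 0.51 ± 0.18 (95% interval 0.13 to 0.89, adjusted p = 0.0593), which misses the threshold, and was positive in 5 of 5 rats. With rat as a fixed or a random block its adjusted p was 0.0377 or 0.0225. It passed in 6 of 27 alternatives. Within the 2 scan batches the adjusted p was 0.136 and 0.299, and without rat 4 it was 0.194. Median centring gave a change of 0.33 (adjusted p = 0.899). In DSS rats normal colon measured 0.22, 0.24, 0.96, 0.63 and 1.25 and tumours 0.80, 0.51, 0.61, 1.22 and 0.90 in rats 1, 5, 6, 7 and 9. These overlapped, and the difference was 0.15 ± 0.18 (adjusted p = 0.722). The normal colon of rats 1 and 5, the pair that correlated most closely, gave the 2 lowest of the DSS values. The interaction was -0.36 ± 0.26 (95% interval -0.90 to 0.18, adjusted p = 0.555).

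Egfr encodes the receptor of all 6 ligands. By the brighter probe its level was 1.67, 1.48, 1.52, 0.76 and 0.14 in normal colon and 1.73, 1.90, 3.09, 1.21 and 1.29 in tumours of untreated rats 2, 3, 4, 8 and 10. Rat 4 tumour was the highest of all 20 samples. The tumour value was the higher in 5 of 5 rats, by 0.05 to 1.57, yet the groups overlapped. The change was 0.73 ± 0.37 (95% interval -0.05 to 1.503, adjusted p = 0.204), and with rat as a fixed block it passed (adjusted p = 0.0265), while with rat as a random block it did not (adjusted p = 0.0836). Without rat 4 it was 0.52 (adjusted p = 0.418). The second probe gave 0.37 ± 0.17 (adjusted p = 0.162).

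In DSS rats Egfr measured 1.69, 1.66, 1.72, 1.53 and 0.24 in normal colon and 0.997, 1.30, 1.47, 0.81 and 0.51 in tumours of rats 1, 5, 6, 7 and 9. In 4 of 5 rats the tumour was lower, the opposite side from untreated rats, and the difference was -0.35 ± 0.37 (95% interval -1.13 to 0.43, adjusted p = 0.665). Tumours of DSS rats minus tumours of untreated rats gave -0.82 ± 0.37 (unadjusted p = 0.0384 and adjusted p = 0.758 by limma). The interaction was -1.08 ± 0.52 (95% interval -2.17 to 0.02, adjusted p = 0.343) by this probe and -0.64 ± 0.24 (adjusted p = 0.194) by the second. Levels also followed the scan batch: normal colon measured 1.48 to 1.72 in rats 1 to 6 and 0.14 to 1.53 in rats 7 to 10. The raw Cy5 signal of the pool at this probe, on arrays without raised signal and before loess, was 192.2 to 454.8 in the first batch and 545.1 to 670.1 in the second. That shift was not particular to Egfr: the median was also higher in the second batch for Egf (287.2 and 890.3) and Tgfa (1153 and 3145). For Erbb3 it was lower there (93.1 and 87.6). The part of the shift in the Egfr levels was not tested. With scan batch as a block the untreated tumour change had an adjusted p of 0.0337 and the interaction one of 0.0764.

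The order of Egfr means was tumours of untreated rats (1.84 ± 0.76, SD, n = 5), normal colon of DSS rats (1.37 ± 0.63, SD, n = 5), normal colon of untreated rats (1.12 ± 0.65, SD, n = 5) and tumours of DSS rats (1.02 ± 0.38, SD, n = 5). Of neighbours in this order the 2 normal groups were tested, and their difference was 0.25 ± 0.37 (adjusted p = 0.757).

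Erbb3 encodes the neuregulin receptor. It was dim, with a median Cy3 intensity of 126.9, and was well above background on 23 of 24 arrays. Group means ran from 0.23 ± 0.12 (SD, n = 5) in tumours of DSS rats to 0.34 ± 0.18 (SD, n = 5) in normal colon of untreated rats. The tumour value was lower in 5 of 5 untreated rats, by 0.01 to 0.36, for a change of -0.11 ± 0.10 (95% interval -0.32 to 0.11, adjusted p = 0.575). The other comparisons gave -0.07 to 0.04, and the lowest adjusted p among these was 0.787. Signals this near background compress ratios, so these intervals do not bound the change in the RNA.

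The second comparison asked what DSS left behind in normal colon at 97 days of age, when the last DSS had ended on day 61. Hbegf was the 1 member of 9 that rose, 8 did not pass, and none fell. Over all features 7.24% passed, 3.91% as higher. The median change of the 9 genes was -0.01, as was that of all features.

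Hbegf encodes a ligand that heparan sulfate holds near the cell surface and that injured epithelium is known to induce. Its level was 0.80, -0.78, 0.66, -0.97 and -0.07 in normal colon of untreated rats 2, 3, 4, 8 and 10, and 1.34, 1.42, 0.96, 0.0025 and 1.36 in that of DSS rats 1, 5, 6, 7 and 9. Of the DSS rats, 4 lay above all untreated rats and rat 7 lay among them. The value of untreated rat 2 is the mean of 2 arrays that gave 1.25 and 0.36. That difference of 0.89 was the largest between a first and a second array for any member. No member was without overlap between the groups, against 8.58% of all features. Hbegf rose by 1.09 ± 0.32, 2.13-fold (95% interval 0.41 to 1.77, adjusted p = 0.0478), which is close to the threshold. The change was 1.01 and 1.20 within the 2 scan batches, with an adjusted p of 0.103 and 0.415. It passed in 13 of 26 alternatives, with adjusted p-values from 0.00831 to 0.635. Leaving out rat 1, 3, 5, 6, 8, 9 or 10 ended the call (changes of 0.86 to 1.10, adjusted p of 0.0739 to 0.136), and leaving out rat 1 or rat 5, the closely correlated pair, gave 1.01 and 0.99. Without the 3 arrays with raised signal it was 1.38 (adjusted p = 0.0123).

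Markers of other cell types also differed between the 2 normal colon groups. In normal colon of DSS rats the squamous list mean was 3.18 to 5.16, against -0.04 to 2.05 in that of untreated rats. Of 7 leukocyte markers 3 rose with DSS in normal colon, and their list mean was 0.76 to 1.28 against -0.13 to 0.19. Itgam was the 1 leukocyte marker not well above background on any array of that group. The part of these cells in the Hbegf result was not tested. Hbegf and the squamous mean correlated at 0.31 over the 20 samples and at -0.21 after removal of group means. The squamous means of the 2 normal colon groups did not overlap, so neither correlation can separate those cells from DSS.

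Tumours did not differ past the threshold in Hbegf. They measured 0.66, 0.11, 0.80, 0.67 and 0.37 in untreated rats and 0.49, 1.02, 0.60, 0.52 and 1.07 in DSS rats, and DSS minus untreated was 0.22 ± 0.32 (95% interval -0.46 to 0.90, adjusted p = 0.9999). Tumour minus normal colon was 0.59 ± 0.32 in untreated rats (adjusted p = 0.239) and -0.28 ± 0.32 in DSS rats (adjusted p = 0.704). The interaction was -0.87 ± 0.46 (95% interval -1.83 to 0.09, adjusted p = 0.390). The comparisons share groups, so the DSS change in normal colon and the tumour change in DSS rats rest on the same 5 normal samples. In order of means, Hbegf was highest in normal colon of DSS rats (1.02 ± 0.59, SD, n = 5), then in tumours of DSS rats (0.74 ± 0.28, SD, n = 5), tumours of untreated rats (0.52 ± 0.28, SD, n = 5) and normal colon of untreated rats (-0.07 ± 0.81, SD, n = 5). Neighbours in that order did not differ past the threshold.

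Ereg encodes a ligand of Egfr and Erbb4. Its probe was dim, with a median Cy3 intensity of 162.4, though well above background on all 24 arrays. Second arrays differed from the first by up to 0.41. Ereg measured 0.05, -0.24, 0.61, -0.79 and -0.03 in normal colon of untreated rats and 0.98, 0.96, 0.44, -0.47 and 0.37 in that of DSS rats. Rat 7 was again the lowest DSS rat, and rats 1 and 5 the highest. The change was 0.53 ± 0.27 (95% interval -0.04 to 1.11, adjusted p = 0.279). In tumours Ereg measured 0.03, -0.07, 0.42, 0.54 and 0.11 without DSS and 0.27, 0.37, 0.89, 0.23 and 1.09 with it, a difference of 0.37 ± 0.27 (adjusted p = 0.9999). Tumour minus normal colon was 0.28 ± 0.27 in untreated rats (adjusted p = 0.575) and 0.12 ± 0.27 in DSS rats (adjusted p = 0.870), with tumours higher in 3 of 5 rats of each treatment.

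Areg encodes amphiregulin and had the brightest probe of the 10, with a median Cy3 intensity of 11240. Normal colon measured 0.45, -0.52, 0.87, -0.18 and 1.38 in untreated rats and 0.73, 0.88, -0.18, -0.44 and 0.63 in DSS rats. Tumours measured 0.21, -0.83, -0.32, 1.10 and 0.50 in untreated rats and 0.95, 0.82, 0.29, 0.62 and 1.09 in DSS rats. Spread among rats was wide in 3 groups, with SDs of 0.59 to 0.77, and narrower in tumours of DSS rats, where all 5 values were above 0 and the SD was 0.31. DSS minus untreated in tumours was 0.62 ± 0.38 (95% interval -0.17 to 1.41, adjusted p = 0.961). Tumour minus normal colon was -0.27 ± 0.38 in untreated rats, lower in 4 of 5, and 0.43 ± 0.38 in DSS rats, higher in 4 of 5. The interaction was 0.70 ± 0.53 (95% interval -0.42 to 1.81, adjusted p = 0.586).

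Btc encodes betacellulin and was the dimmest member, with a median Cy3 intensity of 81.8 and a signal well above background on 17 of 24 arrays. All 20 values lay between -0.18 and 0.45, and the 4 differences between groups between -0.07 and 0.11. The widest interval bound was 0.34, for tumour minus normal colon in untreated rats (adjusted p = 0.588). As for Erbb3, such a dim ratio does not bound the change in the RNA.

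In the comparison of tumours of DSS rats with tumours of untreated rats, 0 of 9 members passed by limma, as did 0% of all features (0 of 26653). At an unadjusted p under 0.05 there were 1673 features, 6.28%, and 1 of the 9 members, Egfr. No member was without overlap, against 0.803% of features. The median change of the 9 genes was 0.17, and that of all features was 0.01. In tumour against normal colon of DSS rats 0 of 9 passed, where 7.59% of all features did. In the interaction 0 of 9 passed, where 2.50% did.

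**Figure D3:**
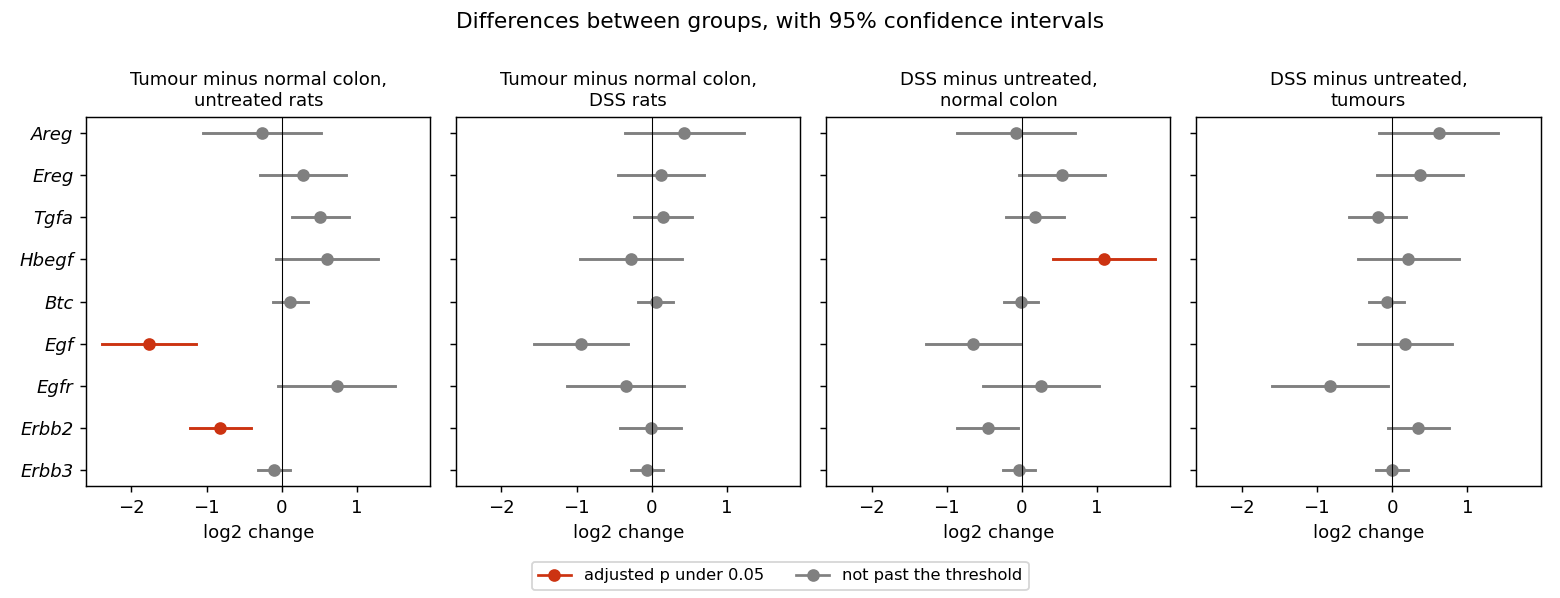
Log2 change of each gene in 4 comparisons, as points with 95% confidence intervals from the limma fit; red marks an adjusted p under 0.05. Egf (-1.77) and Erbb2 (-0.82) are red in tumours of untreated rats and Hbegf (1.09) in normal colon of DSS rats, and no gene is red in either of the other 2 panels.

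The members were also compared with one another over the 20 samples, which share rats and the pool, so correlations are descriptions. Of 36 pairs, 2 had a Pearson correlation above 0.7, Ereg with Hbegf (0.82, and 0.79 after removal of group means) and Egf with Erbb2 (0.77, and 0.61). The median over all pairs was -0.01. The neighbours Areg and Ereg correlated at 0.54, while the neighbour Btc gave -0.34 with Areg and -0.02 with Ereg. Areg and Egfr gave the lowest value, -0.55. Ereg and Hbegf varied together from rat to rat: normal colon of rat 7 was low and tumour of rat 9 high in both.

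**Figure D4:**
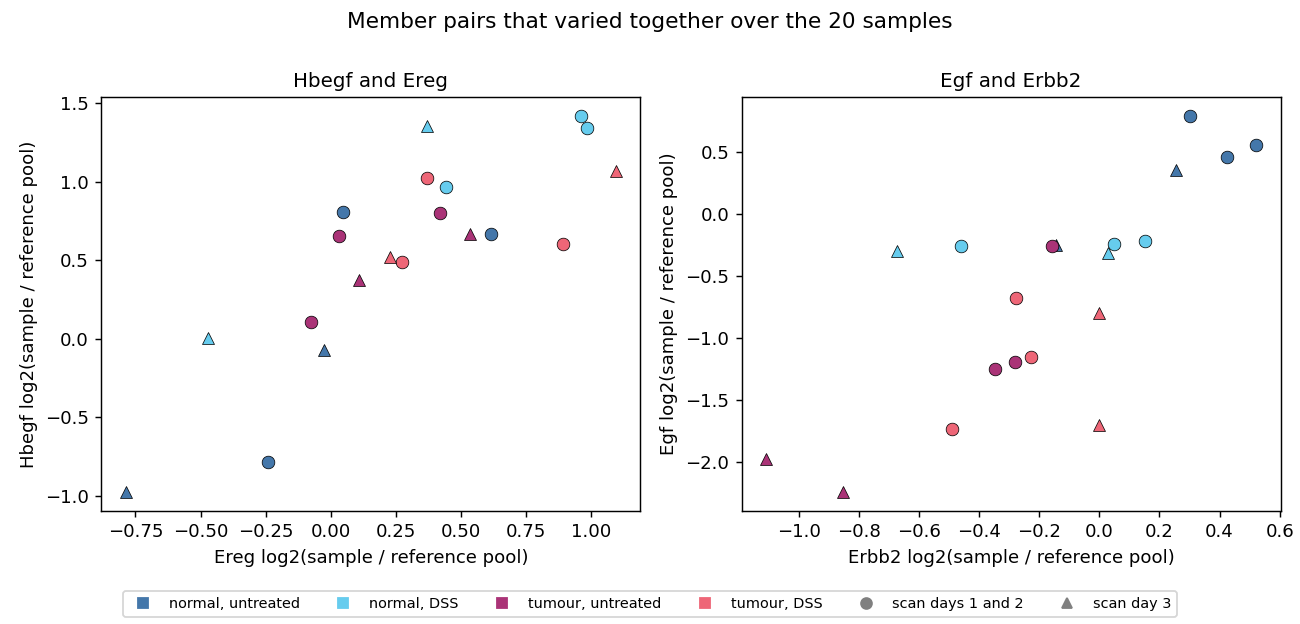
Hbegf against Ereg and Egf against Erbb2, each point 1 of 20 samples, in log2 of the sample over the pool, coloured by group and shaped by scan batch. Both pairs rise together, with correlations of 0.82 and 0.77.

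Among all named features, those whose pattern over the 20 samples was most like Egf were Slc12a8 (r = 0.97), Capn9 (0.97) and Fcna (0.97). Erbb2 was matched most closely by Acss2 (0.95), Thra (0.93) and Syngr2 (0.93), and Egfr by Dusp18 (0.93), Gsk3b (0.92) and Rlim (0.88). Hbegf was most like Ppp1r15a (0.84), Rap2b (0.83) and Plk2 (0.82), and Ereg like Rsph9 (0.88), Hbegf (0.82) and Rap2b (0.81), so Rap2b stood on both lists. For Areg they were Ifi27 (0.84), Snn (0.81) and Cxcl12 (0.75), and for Tgfa Pdcd6ip (0.87), Ascc2 (0.85) and Ubqln1 (0.81). The dim members Btc and Erbb3 were most like Ift88 (0.91), Ghrhr (0.87) and Trim21 (0.86), and Sepsecs (0.81), Tex2 (0.81) and Ap1ar (0.79).

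The rest of the pathway was followed through 5 lists, of which 61 genes were tested. The lists, too, were chosen with earlier results of these data known. In tumour against normal colon of untreated rats 13 of the 61 rose and 5 fell, where 8.57% and 9.42% of all features did. In DSS rats 3 rose and 1 fell, where 3.73% and 3.86% did. With DSS in normal colon 9 rose and 3 fell, where 3.91% and 3.33% did. In tumours 0 of 61 passed.

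Of 15 transcriptional targets of the pathway, 7 rose and none fell in tumours of untreated rats, with a median change of 0.36 against -0.00 for all features. Those with the smallest p were Fosl1, an AP-1 subunit (1.85 ± 0.25, adjusted p = 7.25e-05), Phlda1, which MAP kinase signalling induces (2.002 ± 0.27, adjusted p = 7.28e-05), Myc, a growth regulator that Wnt signalling also raises (1.71 ± 0.29, adjusted p = 0.000534), and the cyclin Ccnd1 (0.64 ± 0.12, adjusted p = 0.00133). In the same tumours the leukocyte list mean was 1.08 to 1.78 against -0.13 to 0.19 in normal colon, where 4 of 7 markers passed the test as higher, and the fibroblast list mean was -1.75 to 0.17 against -3.04 to -1.65, where 4 of 6 did. Their part in the target counts was not tested. In DSS rats 2 of the 15 targets rose in tumours, Ccnd1 (0.98 ± 0.12, adjusted p = 5.80e-05) and Myc (1.34 ± 0.29, adjusted p = 0.00692).

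With DSS in normal colon 5 of the 15 targets rose and 1 fell, with a median change of 0.73 against -0.01 for all features. Phlda1 rose by 2.28 ± 0.27 (adjusted p = 3.88e-05), Fosl1 by 1.38 ± 0.25 (adjusted p = 0.00191), Ier3, a stress-induced survival gene, by 1.20 ± 0.22 (adjusted p = 0.00261) and Plaur, the urokinase receptor, by 1.23 ± 0.23 (adjusted p = 0.00271). The gene that fell, named after its value was seen, was Ccnd1 (-0.41 ± 0.12, adjusted p = 0.0488). The interaction passed for 2 of the 15, Phlda1 (-2.39 ± 0.38, adjusted p = 0.00167) and Fosl1 (-1.69 ± 0.35, adjusted p = 0.0129). Tumour minus normal colon in DSS rats, which did not pass for either, was -0.39 for Phlda1 and 0.16 for Fosl1. The squamous and leukocyte list means given above were also higher in normal colon of DSS rats, and the part of those cells was not tested.

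**Figure D5:**
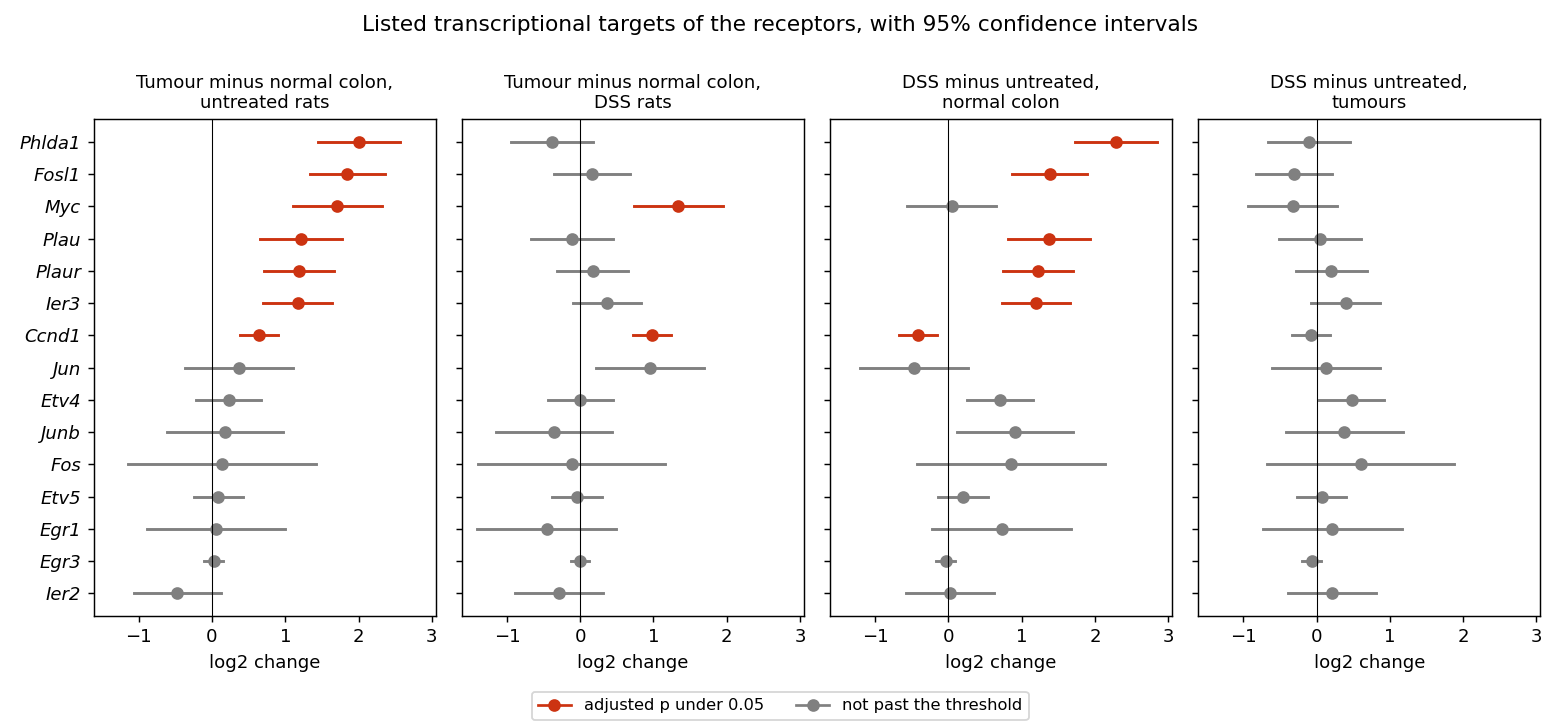
Log2 change of the 15 listed transcriptional targets in 4 comparisons, as points with 95% confidence intervals; red marks an adjusted p under 0.05. In tumours of untreated rats 7 are red and in normal colon of DSS rats 6, 5 of them above 0, while tumours of DSS rats minus tumours of untreated rats show none.

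Of the 3 other family genes tested, Epgn, the ligand epigen, rose in tumours of untreated rats (1.34 ± 0.30, adjusted p = 0.00436), and Nrg1, a neuregulin that Erbb3 binds, rose with DSS in normal colon (1.55 ± 0.38, adjusted p = 0.0170). Nrg2 passed in no comparison, with changes of -0.23 to 0.13. Of 6 sheddase genes and their partners, Adam17, the protease that releases most of these ligands, rose with DSS in normal colon (0.70 ± 0.20, adjusted p = 0.0415). Frmd8, which stabilizes the Adam17 complex, rose in tumours of untreated rats (0.49 ± 0.15, adjusted p = 0.0290). Adam10, which releases Egf and Btc, gave 0.48 ± 0.19 there (adjusted p = 0.0929).

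Among 16 inhibitors of the receptors and the cascade, 2 rose and 2 fell in tumours of untreated rats. The MAP kinase phosphatase Dusp6 rose by 1.40 ± 0.41 (adjusted p = 0.0218) and the Ras pathway inhibitor Spred1 by 0.48 ± 0.16 (adjusted p = 0.0418). Lrig3 fell by 0.77 ± 0.17 (adjusted p = 0.00331) and Spry2, of the Sprouty family, by 0.53 ± 0.18 (adjusted p = 0.0426). In DSS rats Cblb, a ubiquitin ligase of activated receptors, rose in tumours (0.99 ± 0.28, adjusted p = 0.0321). None of the 16 passed with DSS in normal colon.

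Of 21 adaptors and kinases, 2 rose and 3 fell in tumours of untreated rats. The receptor adaptor Grb2 rose by 0.44 ± 0.10 (adjusted p = 0.00341). The kinase Araf fell by 0.57 ± 0.16 (adjusted p = 0.0152) and the Ras activator Sos1 by 0.37 ± 0.10 (adjusted p = 0.0170). With DSS in normal colon Hras rose by 0.51 ± 0.10 (adjusted p = 0.00361), Grb2 by 0.32 ± 0.10 (adjusted p = 0.0494), and the Ras activators Sos1 and Sos2 fell by 0.46 ± 0.10 (adjusted p = 0.0107) and 0.62 ± 0.15 (adjusted p = 0.0146). Hras fell in tumours of DSS rats against their normal colon (-0.33 ± 0.10, adjusted p = 0.04998), and its interaction passed (-0.59 ± 0.14, adjusted p = 0.0293).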

How the data were processed

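RNA of 24 2-colour arrays was analysed. Per the file headers, the authors' scanner software, Feature Extraction 9.1.3.1, wrote the spot intensities. Its log ratio, log10 of Cy5 over Cy3 as deposited, served only as a check. The submitters' processing notes also name Partek, with no role. Background was corrected by normexp (offset 50), loess was run per array on log2 ratios of sample over pool, and probes with Cy3 well above background on at least 5 arrays were kept, in R 4.3.3 with limma 3.58.1. The brightest probe stood for a gene. Arrays of 1 rat and tissue were averaged, and 1 model with a mean per group was fitted to the 20 samples (16 residual degrees of freedom, 2.24 prior), after tests on simulated data. The number of rats limits precision, and the offset shrinks ratios of dim probes. The members and lists were chosen with earlier results of these data known. Named genes were all 9 members, at most 4 called genes of a pathway list per comparison by smallest p, and the 3 features most like each member; 1 called pathway gene is not reported here. Both tissues of a rat come from 1 animal, so rat was an alternative block; deviations of the 2 tissues correlated at 0.08 to 0.57. Upstream sequences are RefSeq's (GRCr8); no genome build is given in the sources used here. Drawing used matplotlib.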

Additional observations from a re-analysis of the deposited data

Results flagged for a closer look

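In normal colon of DSS rats, Egfr in rat 9 stood apart from the other 4 rats: it measured 0.24 and the next lowest rat 1.53, a gap of 0.873 of the group's whole range, where Dixon's 95% critical value for 5 samples is 0.71. Of 36 sets of 5 samples (9 genes in 4 groups) this was the 1 that passed, and chance gives about 1 in 20. By the second Egfr probe rat 9 was also the lowest of that group, at 0.40, with the others at 0.59 to 0.97.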

How the results depend on the processing

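Egf kept its fall in tumours of untreated rats, past the threshold, in all 27 alternatives, with changes of -2.38 to -1.50 and adjusted p-values of 1.56e-05 to 0.0310. Erbb2 kept its fall there in 25 of 27. Members past the threshold in that comparison numbered 2, and 4 with rat as a fixed block or with scan batch as a block, where Tgfa and Egfr were added. They numbered 1 with median centring and within the second scan batch, and 2 to 3 when 1 rat was left out. In tumours against normal colon of DSS rats the count was 0, and 1 (Egf) with the deposited processed signals, no background subtraction, array weights, rat as a fixed or random block, scan batch as a block or slide as a random block; it was 0 to 1 without 1 rat (1 without rat 2, 8 or 10). With DSS in normal colon the count was 1. It was 0 with the processed signals, median centring, no filter on dim probes, first arrays alone and within either scan batch, 3 with array weights or slide as a block, and 0 to 1 without 1 rat. In the interaction it was 0, and 1 (Erbb2) with rat as a random block or slide as a block. In tumours with and without DSS it was 0 in all 26 alternatives. No value changed sign while past the threshold in both fits. The fits with slide as a block took arrays singly, so second arrays counted as replicates in them.

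Over all features, tumour against normal colon of untreated rats had 4795 calls, 918 with median centring, 2457 within the second scan batch and 2642 to 5192 without 1 rat (2642 without rat 8). In DSS rats there were 2024 (994 higher), 665 (400 higher) with median centring, 3595 with array weights, 3318 and 3420 with rat as a fixed and a random block, 3242 with scan batch as a block, 3621 with slide as a block and 111 within the second batch. Without 1 rat there were 1099 to 2094 (1196, 1099 and 1220 without rats 1, 5 and 9). DSS in normal colon had 1929 (1041 higher), 366 (297 higher) with median centring, 5495 with array weights, 3530 with scan batch as a block, 3136 and 2 within the batches, 4701 with slide as a block and 1205 to 2220 without 1 rat (1205 and 1261 without rats 3 and 5). DSS in tumours had 0, 28 with slide as a block and 0 to 3 without 1 rat (3 without rat 2). The interaction had 666, 1244 with the processed signals, 1047 with no background subtraction, 191 with median centring, 1305 with array weights, 1673 with rat as a random block, 1365 with scan batch as a block, 422 and 3 within the batches, 1688 with slide as a block, 314 without the arrays of raised signal and 319 to 803 without 1 rat (319 to 417 without rat 1, 3, 4, 5, 8 or 9). Within a batch fewer samples enter, and with slide as a block second arrays counted as replicates. The cause of the other differences was not tested. Btc and Erbb3 are limited by signal near background, and Ereg was also dim.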
